A study of Mus musculus with 12 samples.

Results

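Complexes II to V of the mitochondrial respiratory chain were described through the mRNA of their subunits in mouse liver. Members were the genes whose symbols name a subunit of succinate dehydrogenase (Sdha to Sdhd), of cytochrome bc1 (Uqcr genes and Cyc1), of cytochrome c oxidase (Cox4 to Cox8 genes) or of ATP synthase (Atp5 genes), or a mitochondrially encoded subunit of these complexes, with a CPM (the count scaled to a common library size) of at least 1 in at least 3 libraries. The symbols matched 63 of 54838 identifiers, of which 7 were pseudogene symbols and 9 were under the CPM minimum. This left 47 members, with 4 in complex II, 10 in complex III, 15 in complex IV and 18 in complex V. Of these, 42 are nuclear genes and 5 lie on mitochondrial DNA, and all 47 passed the count filter of the test. The pattern also takes in Cox7a2l, which acts in supercomplex assembly, Atp5s, a coupling factor that RefSeq names Dmac2l, and Cox6c2, annotated as a processed pseudogene of Cox6c.

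Liver RNA came from C57BL/6J mice kept for 24 h at 21% O2 (normoxia) or 7% O2 (hypoxia) and injected with PBS or with dexamethasone (DEX), a synthetic glucocorticoid. DEX was given intraperitoneally at 10 mg/kg and liver was taken 2 h after the injection. The 4 groups were normoxia with PBS, normoxia with DEX, hypoxia with PBS and hypoxia with DEX, each with 3 biological replicates. No allele, sex or age is given in the sources used here. The title of the series places the question in how hypoxia alters the function of the glucocorticoid receptor.

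In the respiratory chain, complex II passes electrons from succinate to coenzyme Q, complex III passes them on to cytochrome c, and complex IV hands them to oxygen. Complexes III and IV pump protons, and complex V, the ATP synthase, uses the proton gradient to make ATP. Most subunits are made from nuclear genes and imported, while a few core subunits are made inside the mitochondrion from its own DNA.

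The libraries held 12464687 to 24715995 counts. The chi-square per gene between replicates was 1.789 for Hypoxia_DEX-1 with Hypoxia_DEX-3, where sampling noise alone gives 1, and ranged from 10.54 to 38.45 over the remaining replicate pairs. These close libraries differed by more than sampling noise and were counted as separate, but this does not show that they came from separate mice. If they did not, hypoxia with DEX holds fewer than 3 independent samples, and the p-values that rest on it are too small. The estimate of spread is shared by all 12 libraries, so the other comparisons are touched too. With the pair summed, Uqcrfs1 lost its call for hypoxia in PBS mice and mt-Cytb its call for DEX in normoxia. With the pair summed into 1 library, 33 of 47 members were higher in hypoxia in DEX mice and 0 were called for DEX in hypoxia. The largest value, 38.45, was between Hypoxia_PBS-1 and Hypoxia_PBS-2. Counts below include all libraries, and a call lost by leaving out 1 of them is named. The hepatocyte marker list was measured in full (10 of 10 genes tested), the 6 muscle genes Ckm, Myh1, Myh2, Myh4, Myh6 and Tnnc2 had no count in any library, and summed fat markers reached at most 1.055 CPM. In bulk liver, fewer cells of a type and less RNA per cell cannot be told apart.

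In mice given PBS, the mRNA of most subunits was higher in hypoxia. Of the 47 members, 34 were higher in hypoxia and 0 were lower at an edgeR adjusted p under 0.05. Over the 13861 genes tested, 18.9% were called higher and 16.8% lower. Neither an unadjusted p under 0.05 in edgeR nor DESeq2 called any member lower, and DESeq2 called 35 higher. The median log2 fold change of the members was 0.36, that is a modest shift, against 0.01 for all genes tested. In 36 of 47 members every hypoxic PBS library lay above every normoxic PBS library, and 23.5% of all genes did so. The share of all counts taken by the 42 nuclear members was 0.657% to 0.701% in the normoxic PBS libraries and 0.803% to 0.845% in the hypoxic PBS libraries, without any scaling between libraries. Without TMM scaling the median of all genes moved to -0.12 and that of the members to 0.23, so the members stood 0.36 above all genes, and 26 members were called higher and 0 lower.

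By complex, 2 of 4 members of complex II, 8 of 10 of complex III, 12 of 15 of complex IV and 12 of 18 of complex V were higher. The nuclear members were called in 32 of 42 cases and the mitochondrially encoded ones in 2 of 5. Median log2 fold changes were 0.20, 0.40, 0.36 and 0.36 for complexes II, III, IV and V. Within each complex the members spread widely, from 0.07 to 0.51 in complex II and from -0.01 to 0.66 in complex V.

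**Figure D1:**
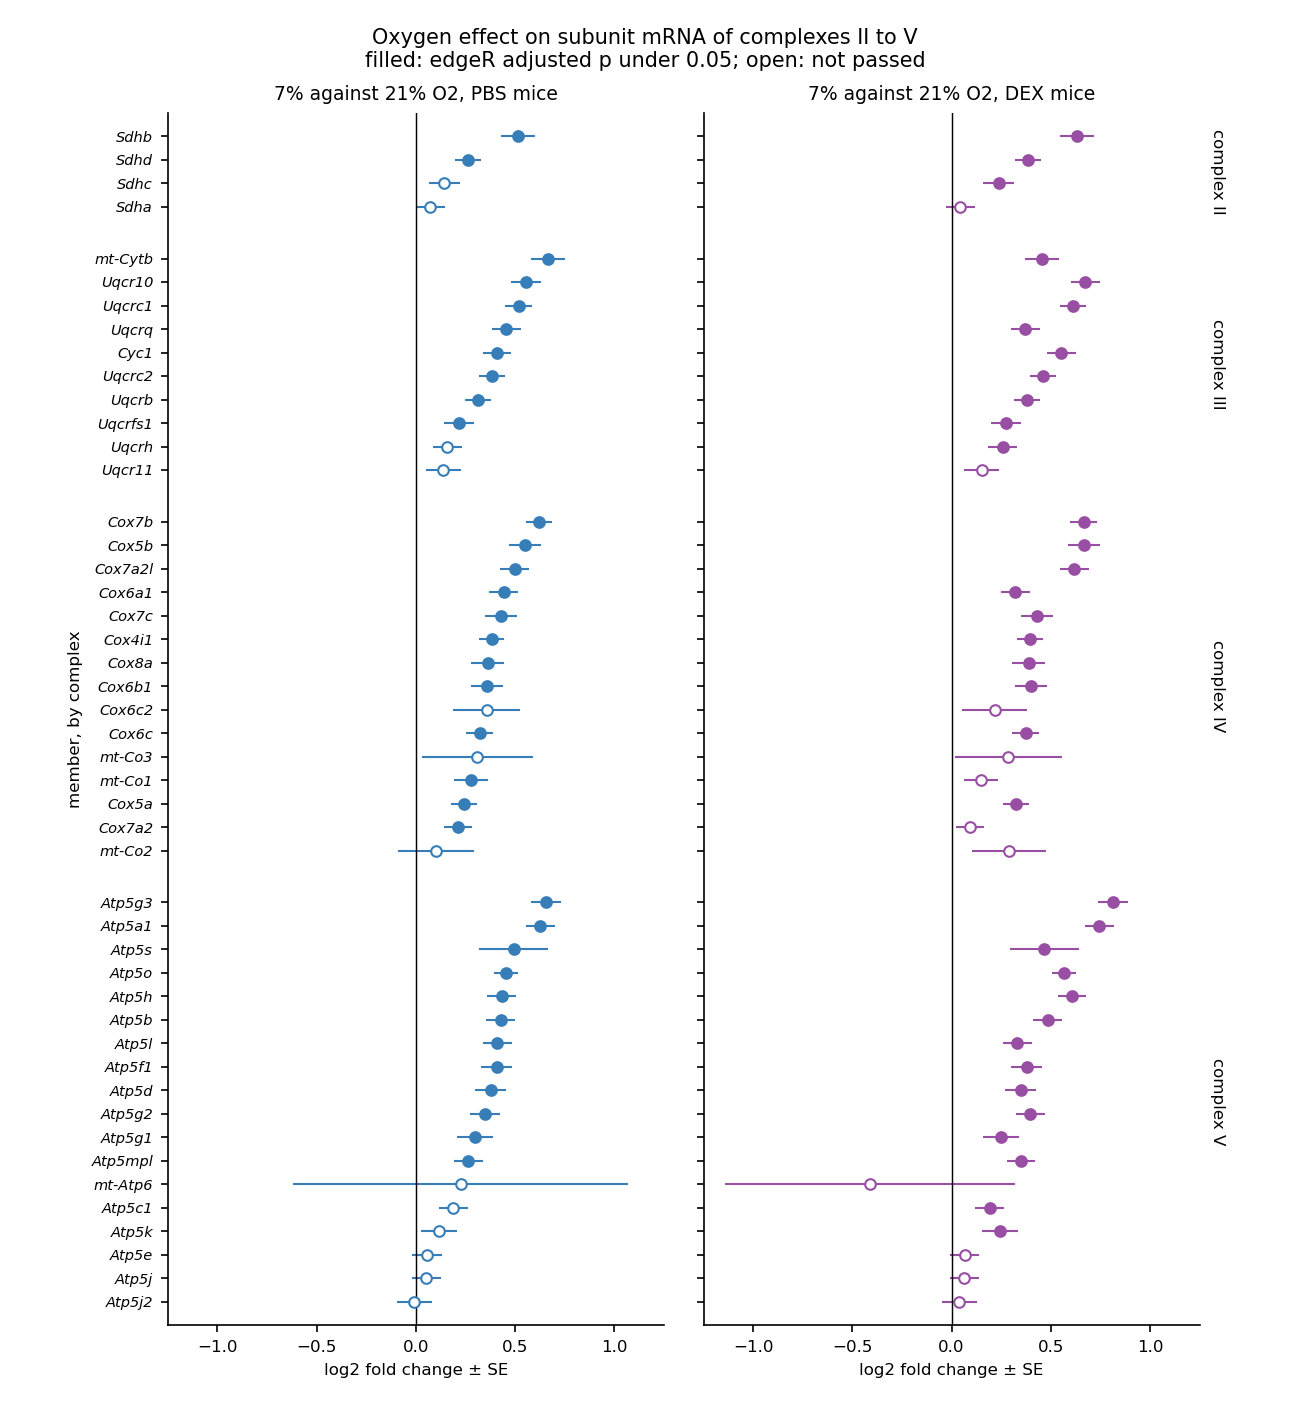
Log2 fold change of hypoxia against normoxia (x axis, bars are ± SE) for the 47 members ordered by complex, in PBS mice on the left and DEX mice on the right. Filled points passed an edgeR adjusted p under 0.05. Of the filled points, 34 lie right of zero in PBS mice and 36 in DEX mice, and 0 lie left of zero in either.

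Kupffer cell markers moved with the same contrast. Of 12 Kupffer cell markers, 0 were higher and 11 were lower in hypoxic PBS mice, and their summed level was 231 to 288 CPM in hypoxic PBS libraries against 539 to 715 CPM in normoxic PBS libraries. Clec4f, a lectin of Kupffer cells, fell by 2.13 on the log2 scale. Of 10 hepatocyte markers 4 were lower and 0 higher, with a median log2 fold change of -0.22. Of 8 endothelial markers 1 was higher and 3 were lower. Of 5 tested erythroid markers 1 was higher and 0 were lower, with a median log2 fold change of 0.60. The summed level of the 7 listed erythroid markers was 91.8 to 106 CPM in hypoxic PBS libraries against 52.3 to 90.5 CPM in normoxic PBS libraries. Among all genes tested, 18.9% were called higher and 16.8% lower in this comparison. The part of these shifts in the members' result was not tested.

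Complex II carries no mitochondrially encoded subunit, and its 4 members differed in their response. Sdhb, the iron-sulfur subunit (chr4:140961203-140979193, plus strand, mm10), measured 133, 142 and 165 CPM in normoxia with PBS and 208, 223 and 197 CPM in hypoxia with PBS. In DEX mice it measured 142, 154 and 160 CPM in normoxia and 241, 229.6 and 235 CPM in hypoxia. Every hypoxic library was above every normoxic library in both arms. Its rise in PBS mice was 1.43-fold (log2 0.51, SE 0.09, edgeR adjusted p = 0.00059, n = 3 per group).

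Sdha, the flavoprotein that binds succinate (chr13:74322254-74350280, minus strand, mm10), measured 446, 446 and 463 CPM in normoxia with PBS and 487, 489 and 449 CPM in hypoxia with PBS. These groups overlapped, and the difference did not pass (log2 0.07, SE 0.07, edgeR adjusted p = 0.458). The ratio of Sdhb to Sdha CPM, which depends on transcript length and is compared here only between groups, was 0.298 to 0.356 in normoxia with PBS and 0.428 to 0.456 in hypoxia with PBS. With DEX the ratio was 0.305 to 0.319 in normoxia and 0.452 to 0.4897 in hypoxia, so the oxygen groups did not overlap in either arm.

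Of the membrane anchors, Sdhd measured 156, 157 and 173 CPM in normoxia with PBS and 195, 195 and 191 CPM in hypoxia with PBS. The groups did not overlap, and it rose from 162 ± 9.72 to 194 ± 2.599 CPM (SD, n = 3; log2 0.26, edgeR adjusted p = 0.00666). That call was lost without TMM scaling (log2 0.14) and in a fit of only the compared groups (log2 0.24). Sdhc, the other anchor, measured 128, 143 and 156 CPM in normoxia with PBS and 155, 168 and 148 CPM in hypoxia with PBS. Its groups overlapped and the difference did not pass (log2 0.14, edgeR adjusted p = 0.176).

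In complex III the core proteins Uqcrc1 and Uqcrc2 rose by log2 0.52 and 0.39. The electron-carrying subunits also rose, with 0.41 for cytochrome c1 (Cyc1) and 0.22 for the Rieske iron-sulfur protein (Uqcrfs1). The Uqcrfs1 call was lost in 12 of 21 alternative settings, with log2 fold changes of 0.09 to 0.21 there, 7 of them leaving out a single library (Normoxia_PBS-2, Normoxia_PBS-1, Normoxia_DEX-3, Hypoxia_PBS-2, Hypoxia_PBS-1, Hypoxia_DEX-3 or Hypoxia_DEX-1). Among the small accessory subunits, Uqcr10 (0.56), Uqcrq (0.46) and Uqcrb (0.31) rose.

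Uqcr10 (chr11:4701973-4704342, minus strand, mm10) gave the largest change among the nuclear members of complex III. It measured 52.6, 51.3 and 57.2 CPM in normoxia with PBS and 83.5, 77.03 and 76.1 CPM in hypoxia with PBS. With DEX it measured 52.5, 53.3 and 60.7 CPM in normoxia and 91.4, 87.6 and 86.8 CPM in hypoxia. No normoxic library reached the lowest hypoxic one. The rise in PBS mice was 1.47-fold (log2 0.56, SE 0.07, edgeR adjusted p = 0.000111). Uqcr11, another small subunit, measured 68.6, 76.3 and 79.5 CPM in normoxia with PBS and 82.1, 85.3 and 79.6 CPM in hypoxia with PBS, so the groups were separated by a narrow gap. Its difference did not pass (log2 0.14, SE 0.09, edgeR adjusted p = 0.234). The hinge protein Uqcrh measured 95.7, 92.4 and 108 CPM in normoxia with PBS and 107, 117 and 107 CPM in hypoxia with PBS. Its groups overlapped and it did not pass (log2 0.16, edgeR adjusted p = 0.112).

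In complex IV, 11 of the 12 nuclear members rose, with log2 fold changes from 0.21 (Cox7a2) to 0.62 (Cox7b). Cox5b (0.55), Cox7a2l (0.499), Cox6a1 (0.44), Cox7c (0.43) and Cox4i1 (0.38) were among them. Cox7b, a small membrane subunit (chrX:106015700-106022450, plus strand, mm10), measured 106, 111 and 113 CPM in normoxia with PBS and 170.2, 176 and 161 CPM in hypoxia with PBS. With DEX it measured 109, 112 and 122 CPM in normoxia and 185, 179.7 and 179 CPM in hypoxia. The hypoxic libraries lay above all normoxic ones in both arms. The rise in PBS mice was 1.54-fold (SE of log2 0.07, edgeR adjusted p = 2.03e-05).

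Cox7a2 (chr9:79755361-79759878, minus strand, mm10), the isoform of subunit 7a found in most tissues, measured 75.4, 77.1 and 76.6 CPM in normoxia with PBS and 88.2, 90.2 and 87.2 CPM in hypoxia with PBS. The groups did not overlap and the rise passed the test (log2 0.21, SE 0.07, edgeR adjusted p = 0.029). The call was lost when any single Hypoxia_PBS or Normoxia_PBS library was left out (log2 0.19 to 0.22), as well as without TMM scaling (log2 0.08), without the count filter, in a fit of only the compared groups, and without Hypoxia_DEX-2 and Hypoxia_PBS-1. Cox5a (0.24) lost its call without TMM scaling (0.11), without the count filter and in a fit of only the compared groups. The retrocopy Cox6c2 was the 1 nuclear member of complex IV that did not pass, at 3.57 to 5.01 CPM in normoxia with PBS and 4.75 to 6.08 CPM in hypoxia with PBS (log2 0.36, SE 0.17, edgeR adjusted p = 0.12). Of its 50-base stretches 52.8% also occur in Cox6c, so counts of the pair may be mixed.

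The complex IV isoforms of other tissues were at or near zero. Cox7b2 and Cox8c had 0 counts in all 12 libraries, Cox8b had 1 and Cox6a2, the muscle form of subunit 6a, had 2. Cox4i2, the subunit 4 isoform tied to low oxygen in lung, had 0 to 3 counts per library and 10 in all, with no library above 0.153 CPM. A count of 3 corresponds to 0.121 to 0.241 CPM in these libraries, and this limit covers counting error only. Cox7a1, the muscle and heart form of subunit 7a, had 2 to 19 counts per library, with the highest level of 1.08 CPM in Normoxia_DEX-1. Of these genes only Cox7a1 passed the count filter, and it passed the test in no comparison. In DEX mice it measured 1.08, 0.705 and 0.808 CPM in normoxia and 0.592, 0.175 and 0.473 CPM in hypoxia. Every hypoxic library was lower there, and the difference did not pass (log2 -0.95, SE 0.41, edgeR adjusted p = 0.074). The others were not tested.

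**Figure D2:**
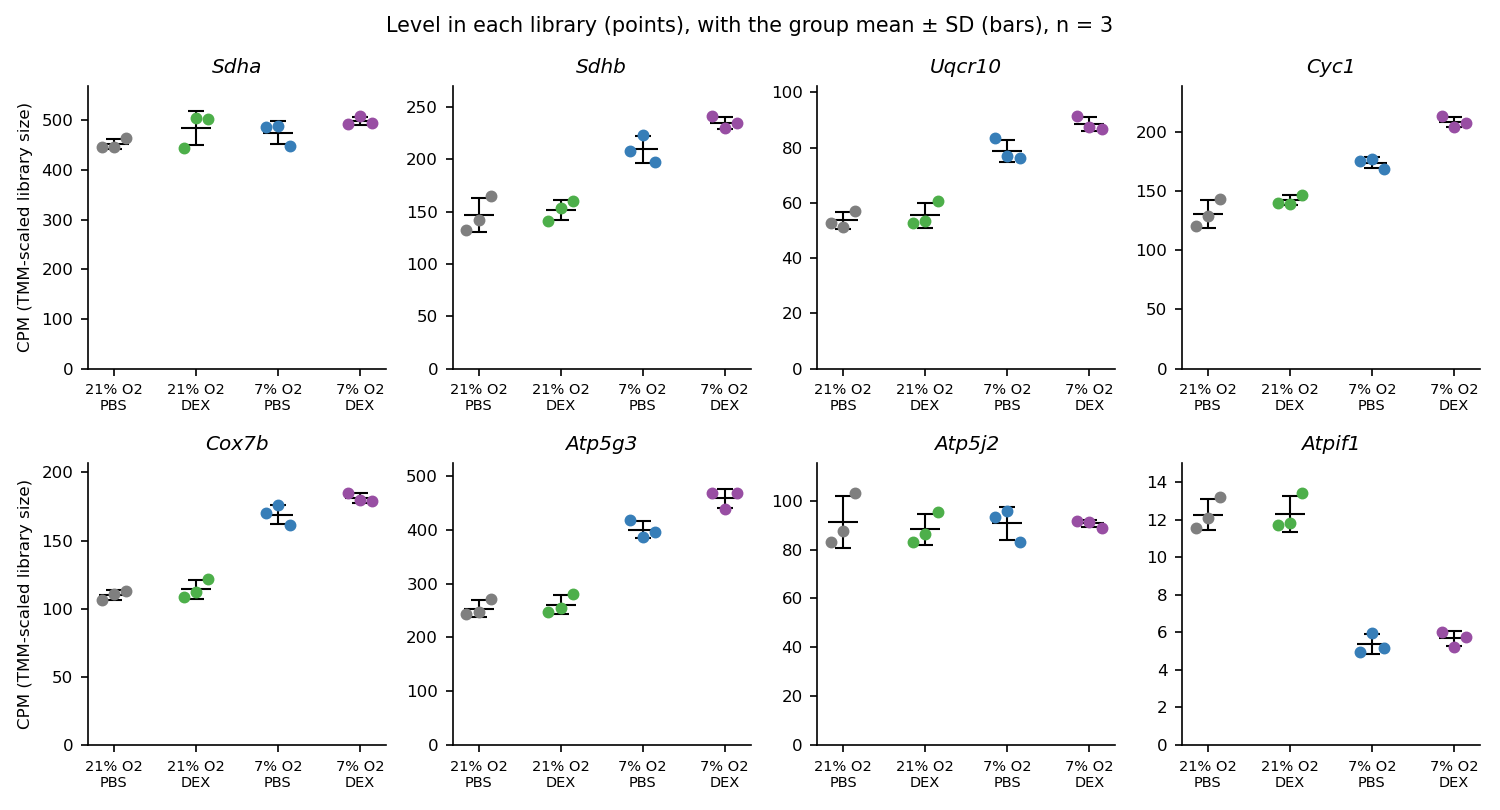
Level of 8 genes in each of the 12 libraries, in CPM on TMM-scaled library sizes (y axis, starting at zero), with 3 points per group and the mean ± SD as bars. Sdhb, Uqcr10, Cyc1, Cox7b and Atp5g3 lie higher in all hypoxic libraries, and Sdha and Atp5j2 overlap between the oxygen groups. Atpif1 lies at 4.97 to 6.04 CPM in hypoxia and 11.5 to 13.4 CPM in normoxia.

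In complex V the catalytic head rose. Atp5a1, the alpha subunit, measured 746, 789 and 852 CPM in normoxia with PBS and 1240.1, 1254 and 1192 CPM in hypoxia with PBS. Atp5b, the beta subunit that holds the catalytic site, measured 919.6, 935 and 1035 CPM in normoxia with PBS and 1288, 1351 and 1251 CPM in hypoxia with PBS. Neither gene overlapped between the groups. Their log2 fold changes were 0.63 (SE 0.07, edgeR adjusted p = 3.67e-05) and 0.43 (SE 0.07, edgeR adjusted p = 0.000629). In the central stalk, Atp5d (delta) rose by 0.38, whereas Atp5c1 (gamma) at 0.19 (edgeR adjusted p = 0.0579) and Atp5e (epsilon) at 0.06 did not pass. Atp5c1 measured 182, 196 and 205 CPM in normoxia with PBS and 221, 234 and 210 CPM in hypoxia with PBS, so its groups were separate though the test was not passed. Without Normoxia_PBS-3 the calls of Atp5c1 (0.23) and of Uqcrh (0.23) were gained.

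The 3 genes Atp5g1, Atp5g2 and Atp5g3 encode the same mature c subunit of the rotor ring with different import signals. Atp5g3 (chr2:73908447-73911326, minus strand, mm10) measured 243, 247 and 271 CPM in normoxia with PBS and 418, 388 and 396 CPM in hypoxia with PBS. With DEX it measured 247, 255 and 280.5 CPM in normoxia and 468, 439 and 469 CPM in hypoxia. The hypoxic libraries were all above the normoxic ones. The rise in PBS mice was 1.58-fold (log2 0.66, SE 0.08, edgeR adjusted p = 3.35e-05).

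Atp5g2 measured 22.7, 22.7 and 23.1 CPM in normoxia with PBS and 31, 27.5 and 28.7 CPM in hypoxia with PBS, without overlap. Its rise passed (log2 0.35, edgeR adjusted p = 0.0027), and 38.35% of its 50-base stretches occur in other genes, mostly the pseudogene Gm10175. Atp5g1 measured 50.1, 58.1 and 59.6 CPM in normoxia with PBS and 70.8, 73.5 and 62 CPM in hypoxia with PBS, also without overlap. Its rise (log2 0.298, edgeR adjusted p = 0.0231) was a call that was lost without Hypoxia_PBS-1 (0.26), Hypoxia_PBS-2 (0.24) or Normoxia_PBS-1 (0.22), without TMM scaling (0.17), in a fit of only the compared groups (0.28), and with Hypoxia_PBS-1 and Hypoxia_DEX-2 omitted together (0.26). Of the summed CPM of the 3 genes, Atp5g3 took 75.4% to 77% in normoxia with PBS and 79.3% to 81.4% in hypoxia with PBS. With DEX its share was 75.96% to 76.3% in normoxia and 80.5% to 82.9% in hypoxia, and the oxygen groups did not overlap.

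In the peripheral stalk, Atp5f1 (0.41), Atp5h (0.43) and Atp5o, the oligomycin sensitivity protein (0.45), rose, and Atp5j (0.05) did not pass. Of the small membrane subunits, Atp5l (0.41) and Atp5mpl (0.26) rose, and Atp5k (0.12) and Atp5j2 (-0.01) did not pass. Atp5k measured 42.7, 43.8 and 50 CPM in normoxia with PBS and 48.9, 51.1 and 48.1 CPM in hypoxia with PBS, where the groups overlapped (edgeR adjusted p = 0.332). The Atp5mpl call was lost without Normoxia_PBS-2 (0.24) and without TMM scaling (0.14). Atp5j2, subunit f (chr5:145183698-145192062, minus strand, mm10), measured 83.1, 87.7 and 103 CPM in normoxia with PBS and 93.5, 95.9 and 83.1 CPM in hypoxia with PBS. These groups overlapped throughout (SE 0.09, edgeR adjusted p = 0.953). Atp5s was the least abundant per kilobase of the nuclear members of complex V with a principal transcript, at 2.89 CPM per kilobase of transcript in normoxia with PBS, and its rise (log2 0.49, edgeR adjusted p = 0.0427) was lost in 12 of 21 alternative settings (0.36 to 0.57). In 7 of these a single library was left out, namely Hypoxia_DEX-1, Hypoxia_PBS-1, Hypoxia_PBS-2, Normoxia_DEX-1 or any Normoxia_PBS library.

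Atpif1, which binds the ATP synthase and blocks its reverse, ATP-consuming action, is not named as a subunit and was measured beside the members. It gave 11.5, 12.1 and 13.2 CPM in normoxia with PBS and 4.97, 5.99 and 5.17 CPM in hypoxia with PBS. With DEX it gave 11.7, 11.8 and 13.4 CPM in normoxia and 6.04, 5.24 and 5.77 CPM in hypoxia. The hypoxic libraries all lay under the normoxic ones, opposite to the catalytic head. Its log2 fold change fell by 1.19 in PBS mice (SE 0.12, edgeR adjusted p = 8.84e-06) and by 1.11 in DEX mice (SE 0.11, edgeR adjusted p = 9.68e-06). Usmg5, a small ATP synthase subunit whose symbol does not match the pattern either, rose in PBS mice by log2 0.42 (edgeR adjusted p = 0.000647).

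Among the mitochondrially encoded members, 2 of 5 were called. mt-Cytb, cytochrome b of complex III, measured 8147, 8065 and 9323 CPM in normoxia with PBS and 13038, 14050.5 and 13437 CPM in hypoxia with PBS. The groups were far apart (log2 0.67, SE 0.09, edgeR adjusted p = 8.34e-05). mt-Co1, the catalytic subunit of complex IV, measured 13909, 14773 and 16063 CPM in normoxia with PBS and 17338, 19262 and 17623 CPM in hypoxia with PBS. Its rise was smaller (log2 0.28, SE 0.09, edgeR adjusted p = 0.0218), and the call was lost without Hypoxia_PBS-2, Normoxia_PBS-1 or Normoxia_PBS-2, without TMM scaling, and in a fit of only the compared groups, with log2 0.15 to 0.27 in these settings.

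The other 3 had few counts. Windows of mt-Atp6, which is among these 3, and of mt-Co1 are shown beside those of their nuclear copies because the copies are near identical. mt-Co2, mt-Co3 and mt-Atp6 had 101 to 203, 33 to 91 and 41 to 269 counts per library, against 214782 to 403145 for mt-Co1. GENCODE annotates copies of these genes on nuclear chromosome 1. In the first pair shown, mt-Atp6 and its copy Gm10925, 678 of 678 aligned bases were identical. In the second pair, mt-Co1 and its copy Gm29216, 486 of 492 were, and capitals mark the 6 bases that differ, all within the window shown. The windows of 60 bases are from mm10, chrM:7927-7986 (plus strand) and chr1:24614592-24614651 (minus strand), then chrM:6381-6440 (plus strand) and chr1:24616138-24616197 (minus strand), each written 5′ to 3′ on the strand of the gene.
mt-Atp6: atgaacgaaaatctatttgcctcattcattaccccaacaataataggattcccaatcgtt
Gm10925: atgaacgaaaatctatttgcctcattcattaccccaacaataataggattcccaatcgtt
mt-Co1: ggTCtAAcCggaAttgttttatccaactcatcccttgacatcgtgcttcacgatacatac
Gm29216: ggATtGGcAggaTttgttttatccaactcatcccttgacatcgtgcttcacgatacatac
Of the 50-base stretches of mt-Co2, mt-Co3 and mt-Atp6, 100%, 99.9% and 99.5% occur in another annotated gene, against 51.1% for mt-Co1 and 0% for mt-Cytb. With such sharing, reads of these 3 genes cannot be told apart from those of the copies, and the copies held 12 to 82 counts per library. The part of the sharing in the low counts was not tested. mt-Co2 (log2 0.10, edgeR adjusted p = 0.713) and mt-Co3 (log2 0.31, edgeR adjusted p = 0.411) did not pass in hypoxic PBS mice, at 5.85 to 8.87 against 7.32 to 9.35 CPM and at 1.91 to 3.11 against 2.86 to 3.72 CPM. Whether reads with several positions were dropped in the counting is not given in the sources used here. mt-Atp6 stood at 2.43 to 3.87 CPM in 10 libraries and at 16.7 and 10.2 CPM in Normoxia_DEX-3 and Hypoxia_DEX-3. Its log2 fold changes for oxygen and for DEX had SEs of 0.73 to 0.84, so its values carry no comparison.

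**Figure D3:**
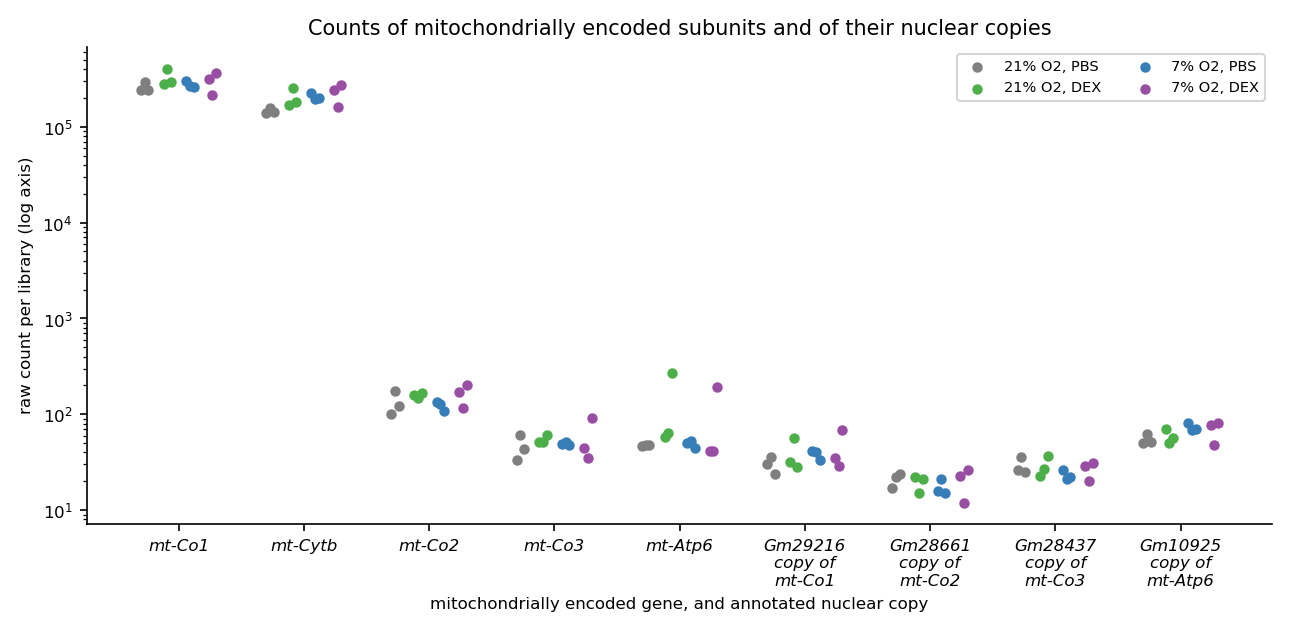
Raw counts per library (y axis, log scale) of the 5 mitochondrially encoded members and of 4 annotated nuclear copies, colored by group with 3 points each. mt-Co1 lies at 214782 to 403145 counts and mt-Cytb at 140589 or more, while mt-Co2, mt-Co3 and mt-Atp6 lie between 33 and 269, near their nuclear copies at 12 to 82.

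In mice given DEX, most members were also higher in hypoxia. Of 47 members, 36 were higher and 0 lower (edgeR adjusted p under 0.05), with 20.7% of all genes called higher and 22.2% lower. DESeq2 and an unadjusted p under 0.05 in edgeR also called 0 lower. The median log2 fold change was 0.37, against -0.02 for all genes. In 36 of 47 members the groups did not overlap and hypoxia was higher, as in 27.4% of all genes. By complex, 3 of 4, 9 of 10, 10 of 15 and 14 of 18 members were higher in complexes II, III, IV and V. Kupffer cell markers were lower in 12 of 12 cases in this comparison, with summed levels of 252 to 276 CPM in hypoxia with DEX and 604 to 875 CPM in normoxia with DEX, and their part in the result was not tested.

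The hypoxia comparisons in PBS and in DEX mice share no library, though 1 fit and 1 scaling served both. In all, 32 members were called higher in both, and 13.9% of all genes were. Only mt-Co1 and Cox7a2 were called in PBS mice alone, and only Sdhc, Uqcrh, Atp5c1 and Atp5k in DEX mice alone. No member differed between the comparisons by the test of the difference itself, given below as the interaction. Across the 42 nuclear members the log2 fold changes of the comparisons correlated with Pearson r = 0.92 and Spearman rho = 0.898, which describes these genes and is not a test. Those called in neither were Sdha, Uqcr11, Cox6c2, Atp5e, Atp5j and Atp5j2 of the nuclear genome, and mt-Co2, mt-Co3 and mt-Atp6.

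The largest rise in DEX mice was that of Atp5g3, from 261 ± 17.3 to 459 ± 17.1 CPM (1.76-fold, log2 0.81, SE 0.08, edgeR adjusted p = 4.57e-06). Atp5a1 followed with 0.74, then Uqcr10, Cox5b and Cox7b with 0.67 each. Sdha had 484 ± 33.9 CPM in normoxia and 499 ± 8.34 CPM in hypoxia, and did not pass (log2 0.04, edgeR adjusted p = 0.658). Of the calls in DEX mice alone, Uqcrh (0.26, edgeR adjusted p = 0.013) held in all 21 alternative settings. The others were lost in some settings. Sdhc (0.24, edgeR adjusted p = 0.0284) was lost without Hypoxia_DEX-1 (0.25) or Normoxia_DEX-1 (0.21) and without TMM scaling (0.17). Without Normoxia_DEX-3, Uqcr11 (0.27) and Cox7a2 (0.18) were called as well. Atp5c1 (0.19, edgeR adjusted p = 0.0473) was lost in 12 settings (0.13 to 0.22), among them the omission of any Hypoxia_DEX library, Hypoxia_PBS-3, Normoxia_DEX-1, Normoxia_DEX-2 or Normoxia_PBS-2. Atp5k (0.24, edgeR adjusted p = 0.0442) was lost in 9 settings (0.18 to 0.26), among them the omission of Hypoxia_DEX-1, Hypoxia_DEX-2, Hypoxia_PBS-3, Normoxia_DEX-1, Normoxia_DEX-2 or Normoxia_PBS-2. Atp5g1 (0.25) lost its call in 7 settings (0.18 to 0.28) and Atp5s (0.47) in 10 (0.29 to 0.48), in part by leaving out 1 library, for Atp5g1 Hypoxia_DEX-2, Hypoxia_DEX-3, Normoxia_DEX-1, Normoxia_DEX-2 or Normoxia_PBS-2, and for Atp5s Hypoxia_DEX-3, Hypoxia_PBS-3, Normoxia_DEX-1, Normoxia_DEX-3, Normoxia_PBS-1 or Normoxia_PBS-3.

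Few members passed the test for DEX at 2 h, at either oxygen level. In normoxia 1 of 47 members was higher and 0 lower (edgeR adjusted p under 0.05), with 9.38% of all genes called higher and 7.4% lower. The unadjusted edgeR p was under 0.05 for 2 of 47 members, both higher, and for 4048 of 13861 genes tested in either direction. DESeq2 called 1 member higher and 0 lower. The median log2 fold change was 0.07 and 43 of 47 values were above zero. Without TMM scaling all genes shifted to a median of -0.15 and the members to -0.08, with 6 of 47 above zero, so the sign of this small shift depends on the scaling and the members stood 0.07 above all genes in both. The called gene was mt-Cytb, at 9576, 10449 and 11134 CPM with DEX against 8147, 8065 and 9323 CPM with PBS (log2 0.29, SE 0.09, edgeR adjusted p = 0.0348). The groups did not overlap. It did not hold in 10 of 21 settings (log2 0.14 to 0.29), among them the omission of Normoxia_PBS-2, Normoxia_PBS-1, Normoxia_DEX-3, Normoxia_DEX-2, Hypoxia_PBS-3, Hypoxia_DEX-3 or Hypoxia_DEX-1.

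In hypoxia DEX also gave 1 member higher and 0 lower (edgeR adjusted p under 0.05), with 6.13% of all genes called higher and 7.05% lower. The called gene was Cyc1, cytochrome c1 (chr15:76343523-76346260, plus strand, mm10). It measured 213, 204 and 208 CPM with DEX against 176, 177 and 169 CPM with PBS, without overlap (1.2-fold, log2 0.26, SE 0.07, edgeR adjusted p = 0.0296). It did not pass without Hypoxia_PBS-3 (0.24), Hypoxia_DEX-3 (0.28) or Hypoxia_DEX-1 (0.26), with the close pair Hypoxia_DEX-1 and Hypoxia_DEX-3 summed (0.27), and without TMM scaling (0.17). In normoxia Cyc1 measured 140.2, 139 and 147 CPM with DEX against 120.4, 129 and 144 CPM with PBS, where the groups overlapped (log2 0.12, edgeR adjusted p = 0.31).

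Below the threshold, the members in hypoxia lay mostly above zero with DEX. The median log2 fold change was 0.11 and 42 of 47 values were positive, 29 of 47 without TMM scaling, where the median was 0.03 against -0.10 for all genes. In 25 of 47 members all DEX libraries exceeded all PBS libraries, including 4 of 4 in complex II, while 15.3% of all genes did so. In 1 member, Cox7a2, all DEX libraries were lower (82.02, 86.9 and 80.5 CPM against 88.2, 90.2 and 87.2 CPM), and 14.6% of all genes were. The unadjusted edgeR p was under 0.05 for 13 of 47 members, all higher, and for 3718 of 13861 genes tested in either direction. Counted in either direction, the share of members was close to that of all genes. The share of all genes that were higher at this unadjusted threshold is not given here, so an excess of higher members was not tested. DESeq2, which called 7.19% of all genes higher, called 9 members: Cyc1, Sdhd, Uqcrc1, Uqcrc2, Atp5a1, Atp5b, Atp5g3, Atp5o and Atp5h, with log2 fold changes of 0.18 to 0.28. With the close pair Hypoxia_DEX-1 and Hypoxia_DEX-3 summed, the median was 0.13, 44 of 47 values were positive and 0 members were called. An edgeR call for DEX in hypoxia was gained for Atp5g3 (0.25) and Uqcrc1 (0.23) without Hypoxia_PBS-1, and for Atp5o (0.20) without Normoxia_DEX-2.

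**Figure D4:**
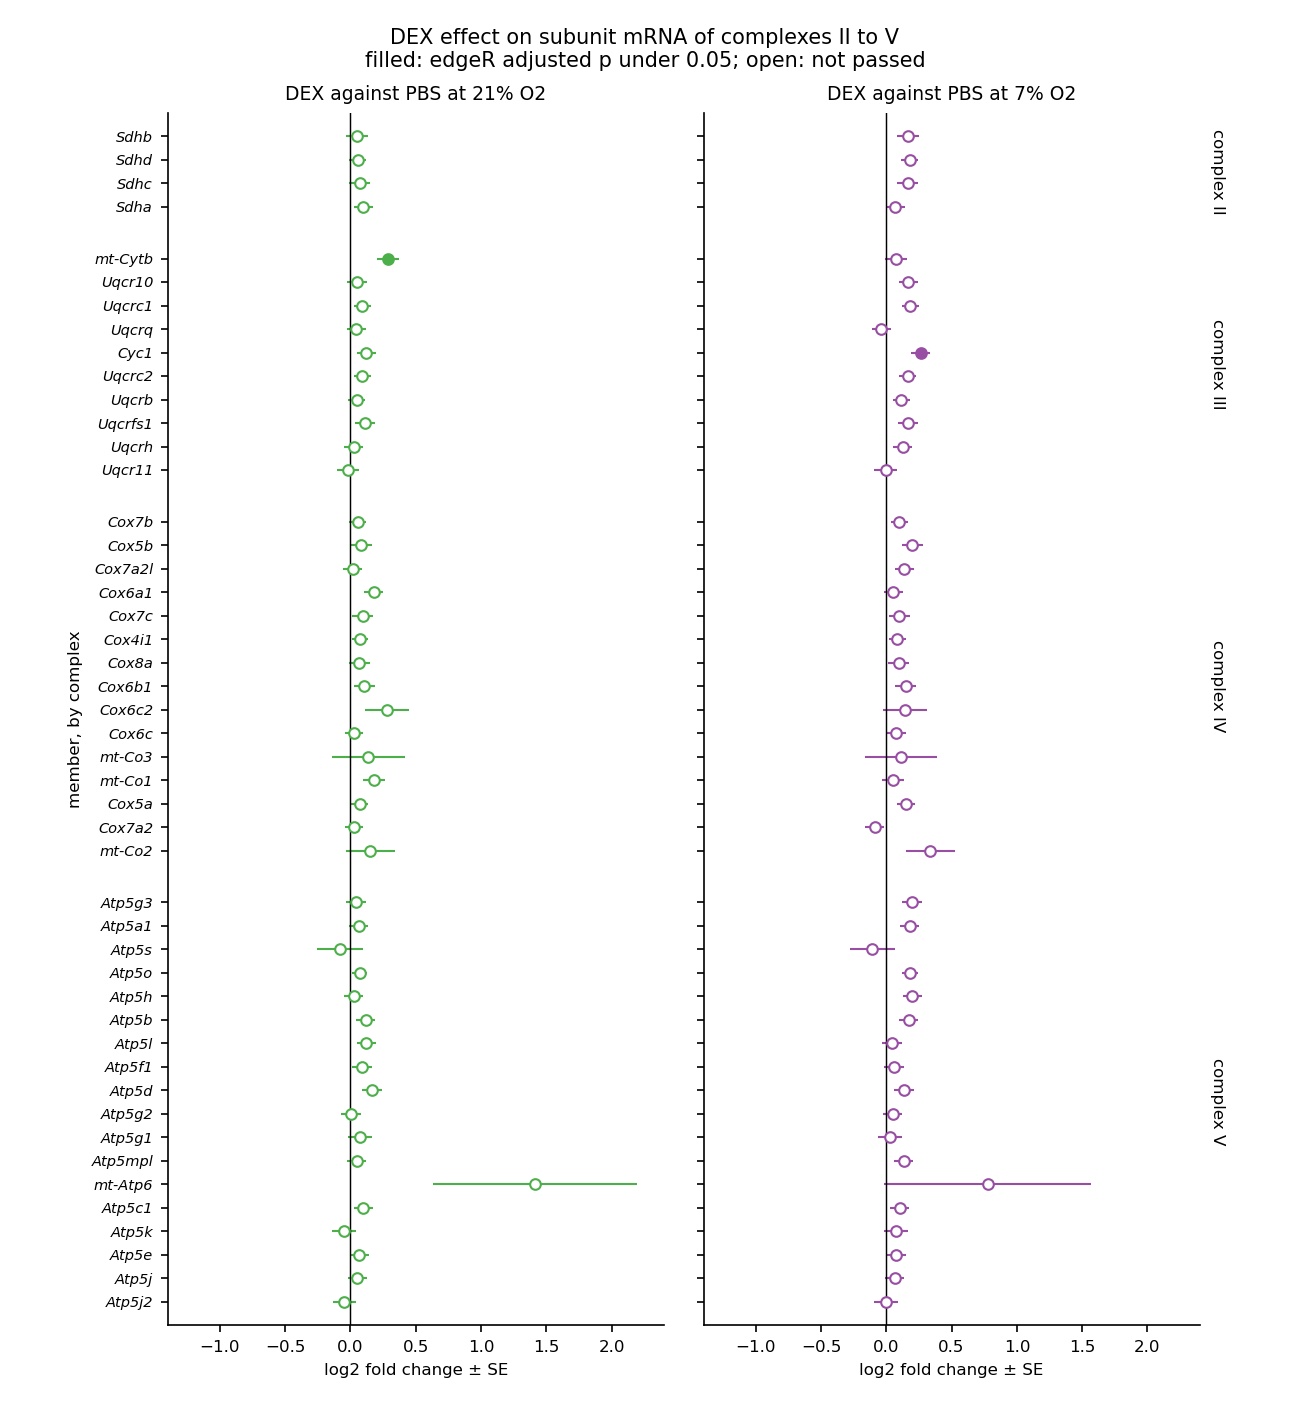
Log2 fold change of DEX against PBS (x axis, bars are ± SE) for the 47 members ordered by complex, in normoxia on the left and hypoxia on the right, with filled points at an edgeR adjusted p under 0.05. The filled points are mt-Cytb at 0.29 in normoxia and Cyc1 at 0.26 in hypoxia, and mt-Atp6 has the widest error bars.

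The response to DEX was not shown to depend on oxygen for any member. The interaction was called for 0 of 47 members in either direction in edgeR and for 0 in DESeq2. Over all genes edgeR called 1.32% (0.325% positive and 0.996% negative). The unadjusted edgeR p was under 0.05 for 0 members and for 1699 of 13861 genes tested. The interaction of mt-Cytb was -0.21 (SE 0.12, edgeR adjusted p = 0.522) and that of Cyc1 was 0.14 (SE 0.10, edgeR adjusted p = 0.632). For Atp5g3 it was 0.16 (SE 0.11, edgeR adjusted p = 0.61). With SEs of this size a small dependence could not be detected.

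Other genes of the pathway were measured for comparison. The complex I list behaved much like the members in hypoxia with PBS, with 28 of 38 listed genes higher, 0 lower and a median of 0.32. Ndufa8 (0.69), Ndufb8 (0.60) and Ndufv1 (0.53) led that list. Factors that assemble complexes II to V did not follow the members, with 6 of 36 higher and 3 lower at a median of -0.01. Over all genes tested, 18.9% were called higher and 16.8% lower, at a median of 0.01. Sdhaf1, which helps insert iron-sulfur clusters into Sdhb, rose from 5.27 ± 0.857 to 9.97 ± 1.2 CPM (log2 0.92, edgeR adjusted p = 0.00346). Coa6, a copper-handling factor of complex IV, rose from 11.7 ± 2.04 to 26.6 ± 3.84 CPM (log2 1.19, edgeR adjusted p = 1.65e-05). Coa3, which acts in the making of mt-Co1 protein, fell by 0.46 (edgeR adjusted p = 0.00117), and Bcs1l, which inserts the Rieske protein, fell by 0.44 (edgeR adjusted p = 0.0118), a call lost without Normoxia_PBS-1 (-0.37). Coa6 was also higher with DEX in normoxia (log2 0.85, edgeR adjusted p = 0.000307) and in hypoxia (log2 0.41, edgeR adjusted p = 0.0356). The call in hypoxia was lost in 7 settings (0.32 to 0.41), 4 of them leaving out Hypoxia_DEX-1, Hypoxia_DEX-3, Hypoxia_PBS-2 or Hypoxia_PBS-3. In DEX mice 4 of 36 assembly factors were higher and 11 lower in hypoxia, and of the 22 tested factors of complex IV 2 were higher and 8 lower, where 22.2% of all genes were called lower.

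The next lists are to be read beside the 18.9% of all genes called higher and the 16.8% called lower in hypoxia with PBS. Of 14 genes for the mobile electron carriers, 4 were higher and 3 lower in that comparison, with a median of 0.14. Cycs, somatic cytochrome c, rose from 15.02 ± 1.03 to 28.99 ± 1.73 CPM (log2 0.95, edgeR adjusted p = 3.53e-05). In coenzyme Q synthesis, Coq7 rose by 1.11 (edgeR adjusted p = 1.57e-05) and Coq8a fell by 0.94 (edgeR adjusted p = 1.86e-05). Among 16 regulators of mitochondrial gene expression, 2 were higher, Esrra (0.79) and Tfb1m (0.698), and 2 were lower, with a median of -0.03. Of 9 tested genes tied to respiration in low oxygen, 7 were higher and 1 lower, led by Bnip3 (1.33), a mitophagy receptor, and Pdk1 (1.08), which inhibits pyruvate dehydrogenase. That list holds Cox7a2l, also a member, and Ndufa4, also in the complex I list. A place in the complex I list does not show that a gene encodes a subunit of complex I. Of 5 genes for mitochondrial mass outside the chain, Tomm20 (0.68) and Hspd1 (0.199) were higher and 0 were lower. The Hspd1 call was lost in 16 of 21 settings (0.07 to 0.21), among them the omission of any library except Hypoxia_DEX-2.

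**Figure D5:**
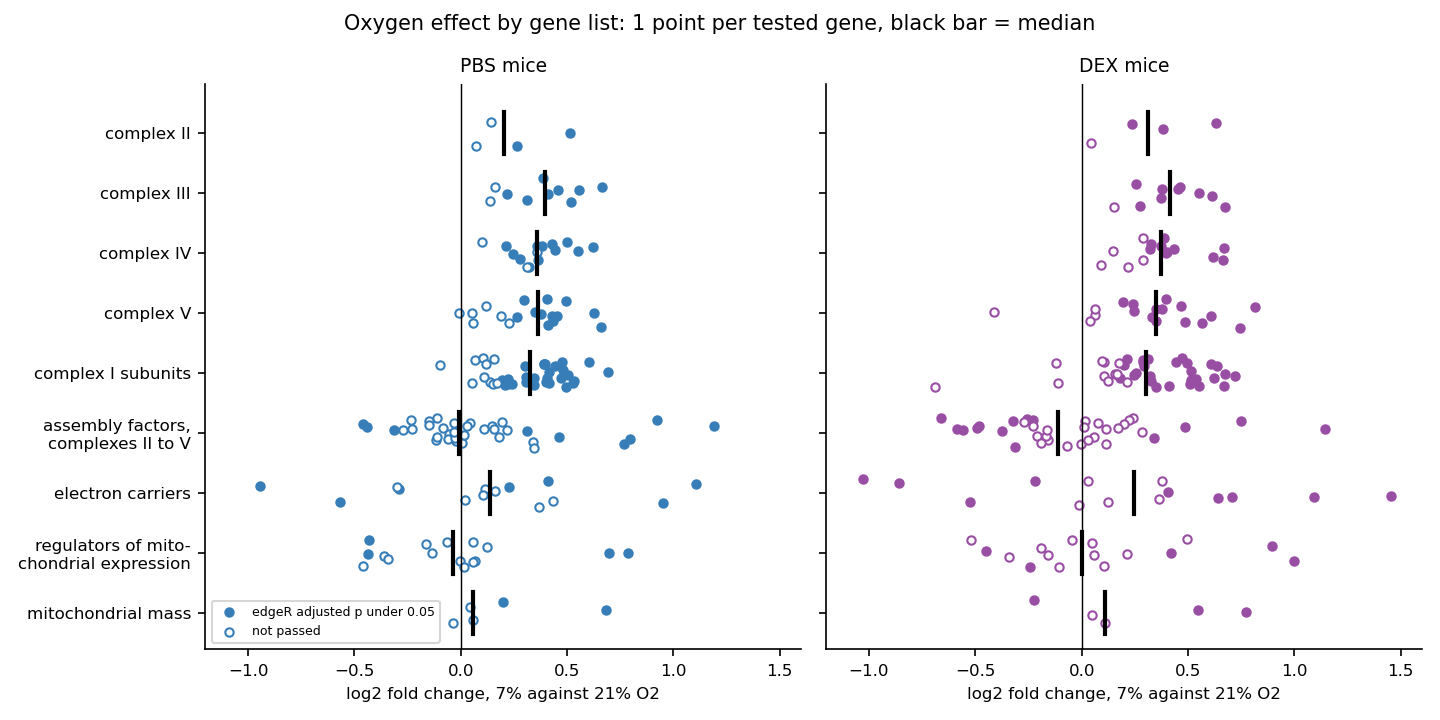
Log2 fold change of hypoxia against normoxia (x axis) for every tested gene of 9 lists (y axis) in PBS mice and DEX mice, with filled points at an edgeR adjusted p under 0.05 and black bars at the median. Medians of the complexes lie at 0.20 to 0.40 in PBS mice, near the genes listed for complex I at 0.32, while assembly factors center on -0.01.

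Gene length and level were given beside the result. Across 9382 tested genes with a principal transcript, the log2 fold change in hypoxia with PBS had a Spearman rho of -0.08 with transcript length, and across 13861 genes a rho of 0.10 with mean level. Tested genes with a principal transcript under 1000 bases had a median of 0.10 (n = 634), and nuclear members of that length a median of 0.35 (n = 23). Nuclear members with longer transcripts had a median of 0.41 (n = 17). In normoxia with PBS, nuclear subunits of complexes II, III, IV and V had median levels of 129.9, 124, 145 and 117 CPM per kilobase of principal transcript.

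Promoters were read for 32 of the 42 nuclear members with an entry in the RefSeq table (GRCm38.p6, the sequence of mm10), as the 250 bases before and the 50 bases after the start. Those of Sdha and Sdhb are shown because these partners responded unlike each other, and those of Cox7b and Atp5g3 because they led the nuclear members of complexes IV and V. Capitals mark matches, on either strand, to the nuclear respiratory factor 1 motif (GCGC, any base, then TGCGC), the ETS motif CCGGAAG, or the core of the hypoxia response element (ACGTG or GCGTG). Only bases before both the RefSeq and the GENCODE start are printed, 5′ to 3′ on the strand of the gene, from chr13:74350281-74350490 (minus strand), chr4:140961021-140961202 (plus strand), chrX:106015450-106015699 (plus strand) and chr2:73911327-73911576 (minus strand).
Sdha: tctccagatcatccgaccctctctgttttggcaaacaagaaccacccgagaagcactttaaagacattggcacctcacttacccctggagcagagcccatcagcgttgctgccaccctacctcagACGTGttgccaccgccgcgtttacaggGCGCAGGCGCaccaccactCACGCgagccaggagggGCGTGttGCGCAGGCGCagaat
Sdhb: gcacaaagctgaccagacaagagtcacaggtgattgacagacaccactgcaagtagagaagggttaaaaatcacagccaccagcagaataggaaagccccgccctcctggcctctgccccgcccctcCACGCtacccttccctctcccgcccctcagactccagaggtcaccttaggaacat
Cox7b: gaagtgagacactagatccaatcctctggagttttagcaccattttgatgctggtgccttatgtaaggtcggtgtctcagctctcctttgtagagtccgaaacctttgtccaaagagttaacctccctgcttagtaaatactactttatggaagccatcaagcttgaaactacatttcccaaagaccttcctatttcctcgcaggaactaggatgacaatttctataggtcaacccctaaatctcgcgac
Atp5g3: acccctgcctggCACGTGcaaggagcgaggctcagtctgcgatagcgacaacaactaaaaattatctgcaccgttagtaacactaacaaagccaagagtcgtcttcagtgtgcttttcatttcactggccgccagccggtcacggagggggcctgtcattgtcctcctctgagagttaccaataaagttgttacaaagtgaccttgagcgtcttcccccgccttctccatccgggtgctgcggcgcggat
The Sdha promoter held 3 matches to the nuclear respiratory factor 1 motif, at 98, 55 and 10 bases before the RefSeq start (the last outside the bases shown), and 3 to the hypoxia response element core, and its mRNA did not pass the test in either arm. The Sdhb promoter held 2 core matches, at 123 and 25 bases before its start, and an ETS match 7 bases after it, of which the first is within the bases shown. Cox7b held no match to any of these motifs and rose. Atp5g3 held the palindrome CACGTG, which gives a core match on each strand, with matches starting 238 and 237 bases before the start, and a nuclear respiratory factor 1 match 13 bases after the start, outside the bases shown.

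Over the 32 promoters, the nuclear respiratory factor 1 motif was found in 9 (28.1%), against 4.82% of the 27025 RefSeq promoters of the same length. The ETS motif was in 11 (34.4%, against 9.16%), the YY1 motif AAGATGGC in 2 (6.25%, against 2.88%), the hypoxia response element core in 24 (75%, against 43.9%) and the TATA box letters TATAAA in 1 (3.12%, against 14.2%). Median GC content was 56.8% in member promoters and 52.7% in all, and its part in these shares was not tested. Of the 24 members with a promoter that rose in PBS mice, 18 held the hypoxia response element core, as did 6 of the 8 that did not pass. For the nuclear respiratory factor 1 motif the numbers were 7 of 24 and 2 of 8, and for the ETS motif 7 of 24 and 4 of 8. A match describes these letters only.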

How the data were processed

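Liver mRNA was measured by RNA-seq in 12 libraries. The authors deposited raw counts per Ensembl gene. Per the labels' protocols, libraries were made with a stranded mRNA kit. The mm10 build, HISAT2 2.0.4, featureCounts, Trimmomatic, SAMtools and DESeq2 are listed, without roles, per the submitters' processing notes. No source used here gives the annotation, strand setting or handling of reads with several positions, so reads of overlapping genes and near-identical copies may be mixed. Groups follow the titles, since the protocol text calls both oxygen arms the hypoxia group. No label says whether the replicates differ in day or cage, so p-values measure the spread between these libraries.

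The members and lists were chosen with earlier results of these data known. The fit used edgeR 4.0.16 under R 4.3.3 (filterByExpr, TMM, robust quasi-likelihood, 1 mean per group, 12 libraries, 8 residual degrees of freedom), with Benjamini-Hochberg adjustment over 13861 genes and a threshold of 0.05. CPM uses TMM-scaled library sizes, and an SE is that of the log2 fold change. Genes named with values are the highest and lowest of each complex in hypoxic PBS mice, those called with DEX, up to 8 not called, the isoform, c-ring and Sdh genes, Cyc1 and Atpif1, and up to 3 genes per list. Atp5a1, Atp5b, mt-Co1, Usmg5, Clec4f and the genes with lost calls were added with their values already known. GENCODE M21 gave the positions and RefSeq the promoters. On simulated counts for hypoxia in PBS mice (13599 genes), 10%, 32%, 81.6% and 98% of genes changed 1.3-, 1.5-, 2- and 4-fold were recovered, with 7 false among 117 calls. At most 50 genes were changed per fold, whereas 35.7% of genes were called in the real comparison. The adjusted threshold was thus stricter in the simulation, and its recovery does not give the power for the members. A missed threshold at 1.3-fold is still no sign of no change.

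Alternatives were RLE factors, no TMM, TMM without mitochondrial genes, DESeq2 1.42.0, no filter, a block for the replicate number, a fit of only the compared groups, Hypoxia_DEX-1 and Hypoxia_DEX-3 summed, Hypoxia_DEX-2 and Hypoxia_PBS-1 left out, and each library left out, 21 in all.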

Additional observations from a re-analysis of the deposited data

How the results depend on the processing

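Counts of members higher in hypoxia were 26 to 35 over the alternatives without a left-out replicate in PBS mice and 31 to 36 in DEX mice, and 29 to 34 and 31 to 37 with 1 library left out. All stayed within 1.5 times of 34 and 36, and 0 members were called lower in any alternative run, 21 for the oxygen and DEX comparisons and 20 for the interaction, which was not fitted with only the compared groups. Of the 34 calls in PBS mice 26 held in all 21 alternatives, and of the 36 in DEX mice 31 did. The DEX counts were small and moved. In normoxia the count of 1 became 0 without TMM, with only the compared groups, and with Hypoxia_DEX-1 and Hypoxia_DEX-3 summed, and ranged from 0 to 2 with 1 library left out. In hypoxia the count of 1 became 2 with RLE size factors, 0 without TMM, 9 with DESeq2, 0 with that pair summed, and 2 without Hypoxia_DEX-2 and Hypoxia_PBS-1, and ranged from 0 to 3 with 1 library left out. The cause was not tested, except that leaving out or summing libraries leaves fewer samples. The interaction stayed at 0. Deviations of same-numbered libraries correlated at -0.151 to 0.39, and those of differently numbered libraries at -0.424 to 0.303. With 3 libraries per group these overlapping ranges cannot decide whether the replicate numbers pair the libraries. With the replicate number as a block, the counts higher were 33 and 33 for hypoxia in PBS and DEX mice and 1 and 1 for DEX in normoxia and hypoxia. Of the alternatives' values for the 190 fold changes of 67 genes followed here, 3681 kept direction and side of the threshold, 132 lost the threshold and 18 gained it. Another 136, from 45 fold changes, changed sign, and in none of these was the value past the threshold before or after. Their log2 fold changes follow. Without TMM, hypoxia in PBS mice gave -0.055 for Sdha, -0.030 for mt-Co2, -0.0090 for Atp5k, -0.068 for Atp5e and -0.076 for Atp5j. Without TMM, hypoxia in DEX mice gave -0.020 for Sdha and -0.024 for Atp5j2. Without TMM, DEX in normoxia gave -0.10 for Sdhb, -0.054 for Sdha, -0.10 for Uqcr10, -0.10 for Cox7b, -0.12 for Cox7a2, -0.11 for Atp5g3, -0.0026 for mt-Co2, -0.032 for Cyc1, -0.017 for mt-Co3, -0.054 for Atp5c1, -0.12 for Uqcrh, -0.079 for Sdhc, -0.077 for Atp5g1, -0.15 for Atp5g2, -0.15 for Atpif1 and -0.094 for Sdhd. Without TMM, DEX in hypoxia gave -0.018 for Sdha, -0.011 for mt-Cytb, -0.011 for Atp5k, -0.061 for Atp5g1 and -0.039 for Atp5g2. Without TMM, the interaction gave 0.036 for Sdha, 0.044 for mt-Co3 and 0.017 for Atp5g1. Without the filter, DEX in normoxia gave -0.0035 for Atp5g2 and -0.00094 for Atpif1. Without the filter, DEX in hypoxia gave 0.0077 for Uqcr11 and 0.013 for Atp5j2. With only the compared groups, DEX in normoxia gave -0.0075 for Atp5g2 and -0.0051 for Atpif1. With DESeq2, DEX in hypoxia gave 0.0079 for Uqcr11 and 0.013 for Atp5j2. With RLE size factors, DEX in hypoxia gave 0.0084 for Uqcr11 and 0.013 for Atp5j2. With the close pair summed, DEX in normoxia gave -0.0075 for Atp5g2 and -0.0048 for Atpif1. With the close pair summed, DEX in hypoxia gave 0.027 for Uqcr11 and 0.019 for Atp5j2. With the close pair summed, the interaction gave 0.0058 for Sdha and 0.0082 for Atp5g1. Without Hypoxia_DEX-2 and Hypoxia_PBS-1, DEX in normoxia gave -0.0083 for Atp5g2 and -0.0058 for Atpif1. Without Hypoxia_DEX-2 and Hypoxia_PBS-1, DEX in hypoxia gave 0.043 for Atp5j2. Without Hypoxia_DEX-2 and Hypoxia_PBS-1, the interaction gave 0.015 for Sdha and 0.011 for mt-Co3. With 1 library left out, hypoxia in PBS mice ranged from -0.073 to 0.087 for Atp5j2 and -0.055 to 0.24 for mt-Co2. With 1 library left out, hypoxia in DEX mice ranged from -0.0037 to 0.11 for Atp5j2, -0.015 to 0.090 for Sdha, -1.30 to 0.92 for mt-Atp6 and -0.023 to 0.52 for mt-Co3. With 1 library left out, DEX in normoxia ranged from -0.055 to 0.050 for Atp5g2, -0.024 to 0.089 for Atp5g3, -0.12 to 0.049 for Atp5j2, -0.15 to 0.024 for Atp5k, -0.067 to 0.060 for Atpif1, -0.050 to 0.068 for Cox7a2, -0.0036 to 0.090 for Cox7b, -0.018 to 0.14 for Sdhb, -0.028 to 0.10 for Uqcr10, -0.13 to 0.040 for Uqcr11, -0.021 to 0.10 for Uqcrh, -0.024 to 0.34 for mt-Co2 and -0.091 to 0.34 for mt-Co3. With 1 library left out, DEX in hypoxia ranged from -0.043 to 0.092 for Atp5g1, -0.062 to 0.055 for Atp5j2, -0.030 to 0.036 for Uqcr11, -0.12 to 1.16 for mt-Atp6 and -0.20 to 0.32 for mt-Co3. With 1 library left out, the interaction ranged from -0.038 to 0.073 for Atp5c1, -0.12 to 0.044 for Atp5g1, -0.050 to 0.13 for Atp5j2, -0.088 to 0.028 for Sdha, -0.045 to 0.14 for Uqcr11, -1.52 to 0.71 for mt-Atp6 and -0.32 to 0.22 for mt-Co3. Depth limits the low-count isoforms.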
